A study of Mus musculus with 36 samples.

Results

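The regions described here are 77 windows of 10 kb of the mouse autosomes in which DNA lesions were listed far more densely than in the typical window. They were chosen by a fixed rule. The autosomes were cut into 246084 windows starting at base 1, the listed lesion positions of the 12 libraries of an assay were summed in each window, and a window was taken when its sum reached 5 or more times the median of all windows with at least 1 position. This selected 68 windows for single-strand breaks (SSBs) and 52 for abasic (AP) sites, of which 43 were chosen in both assays, 25 on SSBs alone and 9 on AP sites alone. Windows starting at chr11:3100001 to chr11:3240001 and at chr17:39800001 to chr17:39890001 were left out by the rule, and 9 of those would have passed it. Because the sums chose the windows, the density of a window in its own assay is given below as a description and was not tested.

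The lesions came from male C57BL/6J mice aged 24 months. Per the labels, 2 animals supplied bone marrow depleted of red cells, brain, heart, liver, peripheral blood mononuclear cells (PBMCs) isolated on Ficoll, and motile sperm from the tail of the epididymis. SSBs were mapped with SSiNGLe and AP sites with SSiNGLe-AP on the same DNA samples, which gave 12 libraries per assay, 2 for each of 6 tissues. Sperm DNA was purified with a different kit from the DNA of the other tissues, so the tissue and the kit cannot be told apart for sperm, and whether the same replicate number in 2 tissues stands for the same animal is not stated, so that p-values measure the spread between these samples.

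A position is a nucleotide on 1 strand at which a library listed at least 1 lesion, in coordinates of the build mm10 (GRCm38). The libraries listed from 225011 to 1041983 SSB positions (median 410489) and from 460719 to 963258 AP positions (median 739741), which corresponds to a median of 21 SSB and 34 AP positions per window over all 12 libraries. At this depth a single library held too few positions in a typical window for its density to be read, and the statements below rest on sums over libraries or on windows many times denser than typical.

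An SSB is an interruption of 1 strand of the double helix. It arises when a sugar is attacked by oxidants, when a topoisomerase fails to reseal its nick, or as an intermediate of base excision repair. An AP site is a sugar that has lost its base, either by spontaneous hydrolysis, to which purines are most prone, or because a DNA glycosylase removed a damaged base, and an AP endonuclease then cuts the strand beside it, so that one lesion can pass into the other. Both are among the most frequent lesions of DNA in living cells.

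The 250 bases before annotated transcription starts show how the lesions lay in the windows at nucleotide resolution. Of 31396 autosomal promoters in the RefSeq table of GRCm38.p6, 27 started in 21 of the 77 windows. The upstream stretches below belong to the promoters with most positions, Hjurp, Sp110, Sp140 and Ugt1a1, and to Ptma as an example from a window chosen on SSBs alone. Each is written 5′ to 3′ on the strand of the gene, and capitals mark the nucleotides at which at least 1 library listed a lesion of the named assay on either strand. The sequences are RefSeq reference sequence. Sp110 is on the minus strand at chr1:85598811-85599060, Sp140 on the plus strand at chr1:85600453-85600702, Ptma on the plus strand at chr1:86526307-86526556, Ugt1a1 on the plus strand at chr1:88211709-88211958 and Hjurp on the minus strand at chr1:88277580-88277829.
Hjurp, SSBs: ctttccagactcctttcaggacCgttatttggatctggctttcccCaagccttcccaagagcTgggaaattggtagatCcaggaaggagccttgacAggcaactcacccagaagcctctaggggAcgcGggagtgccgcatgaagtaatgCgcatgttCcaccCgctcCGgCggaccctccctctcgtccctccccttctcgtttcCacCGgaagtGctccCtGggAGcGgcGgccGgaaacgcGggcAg
Hjurp, AP sites: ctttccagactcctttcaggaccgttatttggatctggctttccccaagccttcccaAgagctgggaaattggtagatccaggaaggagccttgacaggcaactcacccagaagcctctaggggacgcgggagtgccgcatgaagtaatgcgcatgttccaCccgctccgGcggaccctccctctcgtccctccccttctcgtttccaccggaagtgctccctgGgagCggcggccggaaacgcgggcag
Sp110, SSBs: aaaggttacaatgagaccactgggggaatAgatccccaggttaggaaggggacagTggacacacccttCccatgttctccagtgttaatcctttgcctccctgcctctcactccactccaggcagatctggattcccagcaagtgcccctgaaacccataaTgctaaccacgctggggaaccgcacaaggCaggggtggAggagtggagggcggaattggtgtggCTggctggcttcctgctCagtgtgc
Sp110, AP sites: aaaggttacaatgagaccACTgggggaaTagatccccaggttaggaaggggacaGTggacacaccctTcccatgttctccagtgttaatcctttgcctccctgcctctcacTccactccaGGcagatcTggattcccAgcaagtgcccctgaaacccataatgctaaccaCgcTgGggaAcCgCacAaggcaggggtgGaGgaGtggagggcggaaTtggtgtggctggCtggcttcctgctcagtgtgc
Sp140, SSBs: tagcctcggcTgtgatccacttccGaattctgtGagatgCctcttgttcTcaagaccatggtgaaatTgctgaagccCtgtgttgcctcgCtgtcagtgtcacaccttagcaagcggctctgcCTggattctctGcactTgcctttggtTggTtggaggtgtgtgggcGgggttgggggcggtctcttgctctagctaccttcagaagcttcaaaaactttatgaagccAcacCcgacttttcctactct
Ugt1a1, AP sites: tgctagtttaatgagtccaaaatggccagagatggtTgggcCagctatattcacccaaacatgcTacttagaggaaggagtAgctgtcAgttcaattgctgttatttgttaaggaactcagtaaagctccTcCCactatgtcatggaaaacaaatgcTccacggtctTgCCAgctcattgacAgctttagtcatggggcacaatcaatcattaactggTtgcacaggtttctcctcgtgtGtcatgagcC
Ptma, SSBs: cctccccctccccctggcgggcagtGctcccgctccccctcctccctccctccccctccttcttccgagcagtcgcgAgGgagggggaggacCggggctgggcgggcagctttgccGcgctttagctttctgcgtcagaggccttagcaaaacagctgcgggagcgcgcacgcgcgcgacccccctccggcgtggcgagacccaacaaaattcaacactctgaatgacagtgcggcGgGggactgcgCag

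The balance of the 2 assays varied between promoters, which was not tested. Before Hjurp, which encodes the chaperone that deposits the centromeric histone CENP-A, 31 SSB positions from 9 libraries fell on 26 nucleotides, most of them in the last part of the stretch next to the start, and 5 AP positions fell there. Before Ugt1a1, which encodes the enzyme that conjugates bilirubin, the order was the opposite, with 5 SSB and 18 AP positions, the latter from 11 libraries. The promoter of Sp110, a nuclear body protein of the Sp100 family, held 9 SSB and 30 AP positions, and that of its relative Sp140 held 19 and 15. Before Ptma, the gene of the acidic nuclear protein prothymosin alpha, 8 SSB positions and 1 AP position were listed. Strand was uneven within these short stretches. At Sp110, 2 of 30 AP positions lay on the strand of the gene, and at Sp140 16 of 19 SSB positions did. The 300-base promoter of Hjurp, which runs 50 bases past the start, was 59.7% G and C and held 22 CpG dinucleotides, against medians of 53% and 7 over all autosomal promoters, and that of Ptma was 68% G and C with 28 CpG.

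The selected windows ranged from the threshold to far above it. SSB density reached from 5 to 29.2 times the median window, with a median of 7.26 over the 68 windows, and AP density from 5.03 to 22.6 times, with a median of 7.25 over the 52 windows. Together they held 12436 SSB positions, 0.230% of all on the autosomes, and 16149 AP positions, 0.186%. The window just inside the SSB threshold of 105 positions was that in Sspo (105 positions). Just outside it lay the windows of Gm18342 (104), of Fcgr3 with several tRNA genes (104) and of Zfp978 (101). For AP sites the threshold was 170 positions. The last windows inside were those of Vmn2r-ps16 (174), of A530032D15Rik, A530040E14Rik and Gm35498 (173) and at 3.11 Mb of chromosome 18, where no gene is annotated (171). The first outside were those of Gm38510 and C130026I21Rik (168), at 84.99 Mb of chromosome 1 (166) and of Gm3318 and 9230019H11Rik (163). The rule thus divided windows that differed by a few positions.

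Windows chosen in 1 assay were mostly dense in the other as well, in part because 43 were chosen in both. The 68 windows chosen on SSBs had a median AP density of 6.03 times the AP median (1.59 to 22.6), and 61 of them reached 2 times, against 10.5% of all autosomal windows. The 52 windows chosen on AP sites had a median SSB density of 7.10 times (2.48 to 29.2), and all 52 reached 2 times, against 10.7% of all windows. In the windows that the other assay had not chosen the values were lower, with a median AP density of 2.85 times in the 25 chosen on SSBs alone and a median SSB density of 4.57 times in the 9 chosen on AP sites alone, and these lie below 5 times by the rule. SSBs and AP sites were listed from the same DNA samples, so the assays are not independent in their source material. Among the 43 windows chosen in both, the SSB fold divided by the AP fold had a median of 0.956 and ranged from 0.658 in the window of Gm7592 and Gm7281 to 2.08 in that of Kctd16.

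**Figure D1:**
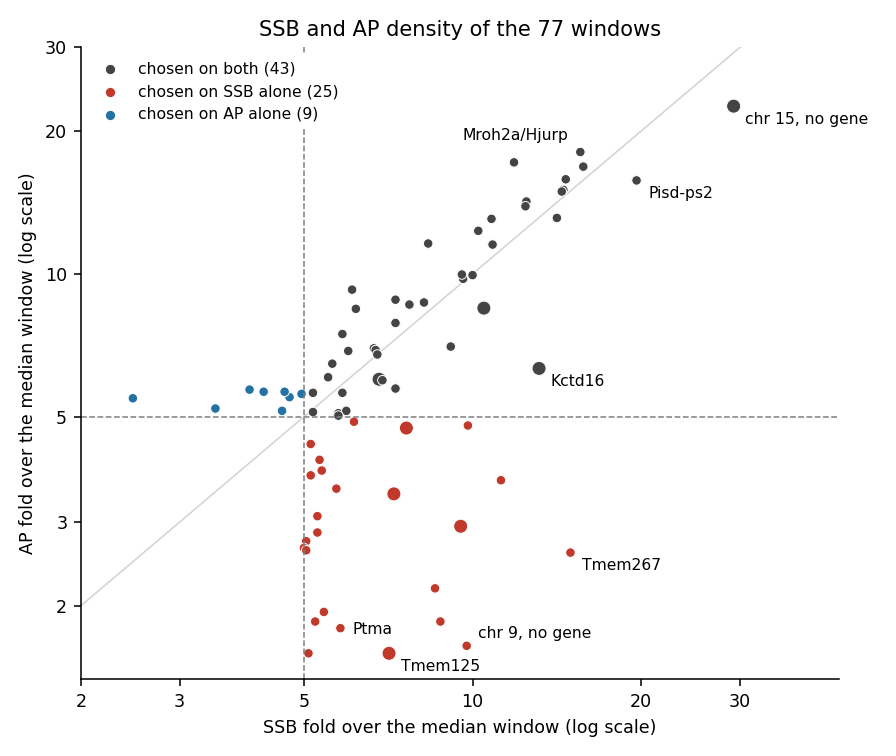
Density of the 77 windows in each assay, as times the median window on log axes, with SSBs on the horizontal and AP sites on the vertical axis. Each point is 1 window, larger points are the 8 windows with 20% or more of their SSB positions in 100 bp, the dashed lines are the thresholds and the colours give the assay or assays that chose it. The 43 windows chosen in both lie near the diagonal, and the 25 chosen on SSBs alone spread down to an AP density of 1.59 times the median.

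The windows lay close together along the chromosomes. Chromosome 1 held 32 of the 77, chromosome 17 held 7 and chromosome 4 held 6, while chromosomes 3 and 12 held 0. There were 11 runs of adjacent windows with 35 windows in all, and 42 windows stood singly. The longest run was on chromosome 1 from 88.21 to 88.31 Mb with 10 windows, and the next was on the same chromosome from 85.58 to 85.63 Mb with 5. Together with shorter runs and single windows from 84.99 Mb onwards, the block around the second run held 19 windows.

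The 10 windows at chr1:88210001-88310000 covered the end of the Ugt1a cluster, Mroh2a, Hjurp and the start of Trpm8. The Ugt1a genes encode UDP-glucuronosyltransferases, which make bilirubin, steroids and drugs soluble for excretion. They share their last exons, and 9 of them overlap the first window. Trpm8 encodes an ion channel that senses cold. The run held 2182 SSB and 3939 AP positions. SSB density was between 4.62 and 15.6 times the median window and AP density between 5.65 and 18.1 times, and both were highest at 88.26 Mb, in the window that Mroh2a and Hjurp overlap, with 327 SSB and 614 AP positions. There the 12 SSB libraries held from 10 to 56 positions (median 26.5) and the 12 AP libraries from 29 to 76 (median 54). Every library thus contributed to the densest window of the run. The windows at 88.23 Mb (305 SSB and 511 AP positions), 88.24 Mb (308 and 538) and 88.25 Mb (261 and 472) were nearly as dense. The run had steep edges, since the window before it stood at 1.71 times the SSB and 2.65 times the AP median, and the window after it at 1.81 and 2.44 times.

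The block at 85 Mb of chromosome 1 was broken into pieces. Its longest run, chr1:85580001-85630000, lay across Sp110 and Sp140, genes of the Sp100 family of nuclear body proteins that read chromatin marks and act in immune cells. Density there was 7.29 to 15.8 times the SSB median and 5.74 to 16.8 times the AP median. The densest of its windows, at 85.59 Mb, held 331 SSB positions (8 to 60 per library, median 24.5) and 572 AP positions (33 to 74, median 43.5). The other pieces lay in genes that are known by a clone or model name only, namely Gm18342 and A530032D15Rik from 85.07 to 85.10 Mb, Gm38510 and C130026I21Rik from 85.24 to 85.26 Mb and from 85.27 to 85.29 Mb, and Gm7592, Gm2666 and Gm2427 from 85.49 to 85.51 Mb. In A530032D15Rik the window at 85.08 Mb held 249 SSB positions (9 to 44 per library, median 16.5) and 584 AP positions (32 to 67, median 50.5), and its AP density of 17.2 times the median was the third highest of all. In the window at 85.27 Mb there were 297 SSB and 446 AP positions, and at 85.25 Mb there were 262 and 483.

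Some promoters of this block shared sequence with each other. Of the words of 31 bases in the promoter of Sp140, 77.8% also occurred in the promoter of another gene of the table, and of those in the promoter of C130026I21Rik 83.3% did, the partners being each other and A530032D15Rik. One of 2 promoters of Sp110 shared 51.5% of these words with promoters of 24 genes, and the other 0%. In the block at 88 Mb this share was 0% for Ugt1a1, Mroh2a, Hjurp and Trpm8. The part of shared sequence in the density of the windows was not tested.

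**Figure D2:**
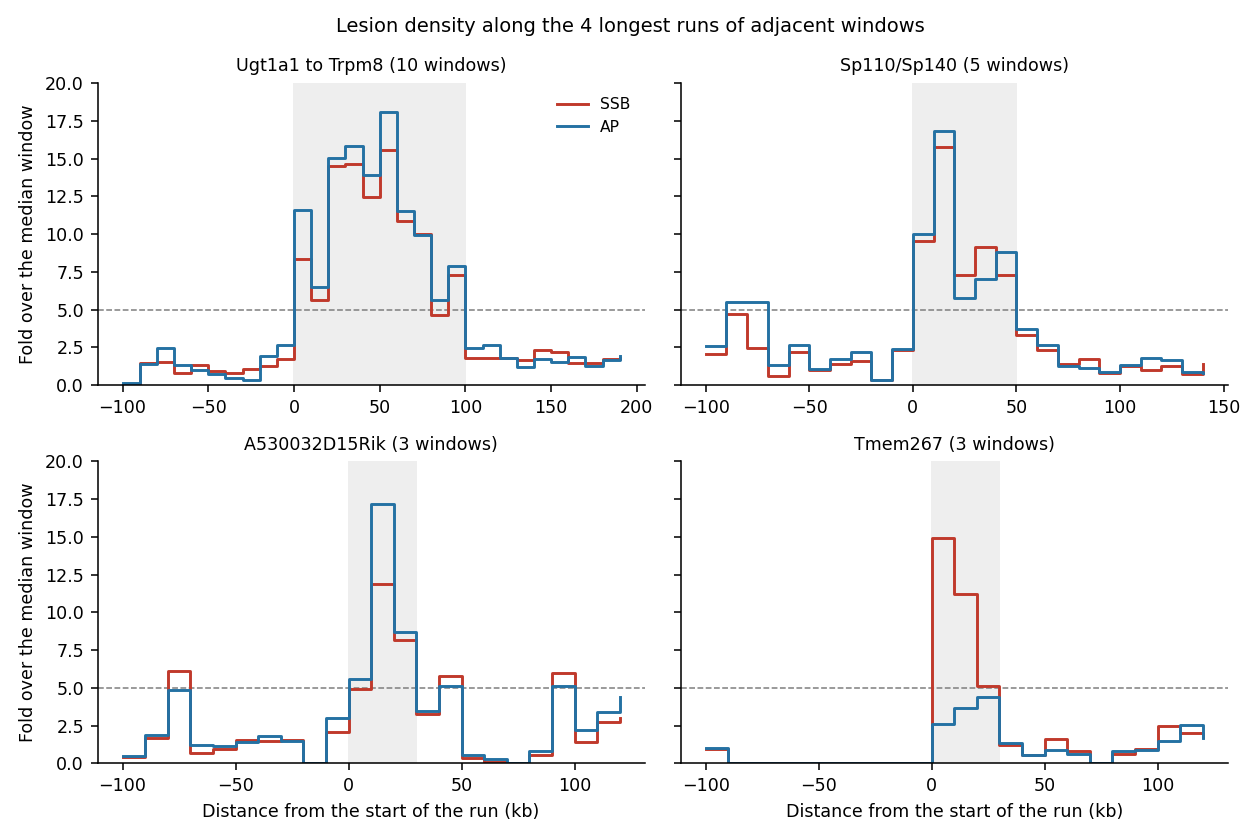
Density along the 4 longest runs and the 100 kb on either side, as times the median window of each assay, against the distance in kb from the start of the run. The grey band marks the run, the dashed line the threshold, and the lines SSBs (red) and AP sites (blue). In the 10-window run the neighbouring windows stand at 1.71 and 1.81 times the SSB median, against up to 15.6 times inside, and in Tmem267 the red line alone reaches the threshold.

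Other runs were shorter. At chr13:119590001-119620000, in Tmem267, 3 windows held 658 SSB and 362 AP positions, so that an SSB density of 5.14 to 15 times the median stood beside an AP density of 2.59 to 4.38 times. All windows at distances of -90 to -10 kb from the start of this run held 0 positions in either assay. In the first window of the run the SSB libraries held 12 to 53 positions (median 21.5) and the AP libraries 5 to 13 (median 7), although the AP libraries were deeper. At chr10:58220001-58240000, 2 windows overlapped by Duxf3, a member of the family of Dux, a transcription factor of the earliest embryonic divisions, held 518 SSB and 926 AP positions. The first of them had 303 SSB positions (12 to 48 per library, median 26) and 507 AP positions (16 to 61, median 46). At chr17:3070001-3090000 lay Pisd-ps2, a pseudogene of the gene for phosphatidylserine decarboxylase. Its window at 3.08 Mb held 412 SSB positions (12 to 77 per library, median 29) and 535 AP positions (26 to 69, median 45), and its SSB density of 19.6 times the median was the second highest of all. Pairs of windows without an annotated gene lay from 3.05 to 3.07 Mb of chromosome 4 and at chr18:3000001-3020000.

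The densest window of all stood singly. It was chr15:75080001-75090000, without an annotated gene, and it held 614 SSB positions, 29.2 times the median, and 767 AP positions, 22.6 times. Every library contributed, with 27 to 111 SSB positions (median 46.5) and 37 to 77 AP positions (median 71.5). Scaled to the depth of the library this was 75.1 to 142 SSB positions per 1000000 positions of the library (ppm, median 117) and 72.7 to 105 ppm for AP sites (median 85.9), so that the libraries differed by less than 2 times in either assay. Neither neighbouring window was selected.

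The 25 windows chosen on SSBs alone more often held a gene start, a difference that was not tested. Their median AP density was 2.85 times the median window, from 1.59 to 4.88, and 7 were below 2 times. In 21 of the 25 the SSB fold was above the AP fold in at least 10 of the 12 DNA samples, a description, since the rule chose them for a high SSB and a lower AP sum. Protein-coding genes overlapped 17 of them, and 10 of the 25 (40%) held an annotated transcription start, compared with 10 of the 43 chosen in both (23.3%), 1 of the 9 chosen on AP sites alone (11.1%) and 9.81% of all autosomal windows. The window of Ptma held 122 SSB and 61 AP positions, and in it 11 of 12 SSB libraries but 4 of 12 AP libraries stood at 2 or more times the median window. That of Ppox, which acts in haem synthesis, with Usp21 and Ufc1, of a deubiquitinase and the conjugating enzyme of UFM1, held 120 and 120. Stat6, the transcription factor of interleukin 4 signalling, and Nab2, a corepressor of EGR factors, shared a window with 111 and 97. Kdm6b, a histone H3 demethylase, had 110 and 63, Tob2, an antiproliferative protein, 111 and 105, and Rarg, the retinoic acid receptor gamma, 107 and 54.

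Further genes lay in windows just past the SSB threshold. The window of Grcc10, Rnu7 and Atn1, the gene of atrophin 1, had 114 SSB and 66 AP positions, that of Il4i1, Tbc1d17 and Akt1s1, an inhibitor of the mTORC1 kinase, 113 and 131, and that of Ap1g2 and Jph4, of an adaptor subunit and a junctophilin, 108 and 128. Sspo, which encodes SCO-spondin, had 105 and 90. AP density in these windows was thus moderately raised, and SSB density close to the threshold.

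The starts in these windows were richer in CpG. The 14 promoters starting in windows chosen on SSBs alone had a median of 58.2% GC and 14.5 CpG dinucleotides, against 51.5% and 5.5 for the 12 promoters of windows chosen in both and 53% and 7 for all. These medians rest on few promoters and were not tested. Other windows chosen on SSBs alone lay outside genes or away from starts and were denser, such as those at 124.25 Mb of chromosome 9 with 205 SSB positions (8 to 36 per library, median 13.5) against 56 AP positions, at 61.26 Mb of chromosome 19 with 200 and 100 and at 13.59 Mb of chromosome 17 with 184 and 63.

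Single windows chosen in both assays outside the blocks of chromosome 1 were on many chromosomes and mostly in genes with a model name or in none. By SSBs the densest of these after that of chromosome 15 was the one in Kctd16, followed by one at 147.42 Mb of chromosome 4, without a gene, and by AP sites the order of these last was the reverse. The window at 147.42 Mb stood at 7.71 and 8.62 times the medians, with 162 SSB and 293 AP positions. At 146.48 Mb of chromosome 4 lay Vmn2r-ps16, a vomeronasal receptor pseudogene, with 109 and 174. The window of Gm2420, Gm52771 and Pisd, the gene of phosphatidylserine decarboxylase, at 32.73 Mb of chromosome 5 held 109 and 191, so that the gene as well as its pseudogene Pisd-ps2 on chromosome 17 was among the windows. The window of 4930467E23Rik on chromosome 8 held 116 and 206, and that of Gm36684 at 13.21 Mb of chromosome 17 held 123 and 254.

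The 9 windows chosen on AP sites alone had SSB densities from 2.48 to 4.95 times the median, with a median of 4.57. One, at 59.76 Mb of chromosome 7, overlapped Snhg14, the noncoding host transcript of the small nucleolar RNAs of the Prader-Willi region, with 175 AP and 96 SSB positions.

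In some windows the positions were heaped on a short stretch. The densest 100 bp held a median of 6.51% of the SSB positions of a window over the 68 windows, but in 8 windows it held 20% or more. The highest share was at 40.30 Mb of chromosome 18, within the span of Kctd16, an auxiliary subunit of the GABA-B receptor, where 46.0% of 276 SSB positions and 39.5% of 215 AP positions fell in 100 bp. The others were at 195.24 Mb of chromosome 1, 181.91 Mb of chromosome 2 in Gm40034 and 118.54 Mb of chromosome 4, which Tmem125 and Gm40237 overlap. They were further at 22.14 Mb of chromosome 10 in E030030I06Rik, 75.08 Mb of chromosome 15, chr18:3000001-3010000 and 61.26 Mb of chromosome 19. The windows on either side of the 8 had a median SSB density of 1.08 and AP density of 0.890 times the median window, against 1.81 and 1.79 for all windows outside runs. Windows in runs have a selected neighbour by definition, and 1 of the 8, at chr18:3000001-3010000, lay in a run.

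The narrow stretches mostly leaned to 1 strand, least so at 181.91 Mb of chromosome 2 with 36.8% of 38 SSB positions on the plus strand. In the window of Tmem125 and Gm40237 the densest 100 bp, chr4:118548701-118548800, held 48 SSB positions from 12 libraries and 5 AP positions. On the plus strand lay 100% of these SSB positions. This stretch was upstream of the Tmem125 start, since the Tmem125 promoter, on the minus strand, ends at chr4:118543976. At chr10:22142501-22142600 in E030030I06Rik, 0% of 33 SSB positions were on the plus strand, and at chr19:61267101-61267200 96.3% of 82 were. In Kctd16 SSBs and AP sites lay side by side on opposite strands, with 127 SSB positions at chr18:40308201-40308300, 7.87% of them on the plus strand, and 85 AP positions in the next 100 bp, 91.8% on the plus strand.

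The same nucleotide was listed by several libraries more often in the narrow windows. In the 8 windows a median of 29.5% of SSB positions repeated a nucleotide and strand already listed by another library, against 2.93% in the 10-window run at 88 Mb and 0.550% over all autosomal windows. This share rises with the number of positions in a window and with their heaping on few nucleotides. The 8 windows were picked for such heaping, so the contrast in part restates that choice, and it was not compared by a test. At 75.08 Mb of chromosome 15 it was 49.5% for SSBs and 64.0% for AP sites, and 37 AP nucleotides were each listed by at least 6 libraries, 1 of them, on the minus strand at chr15:75086731, by all 12.

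**Figure D3:**
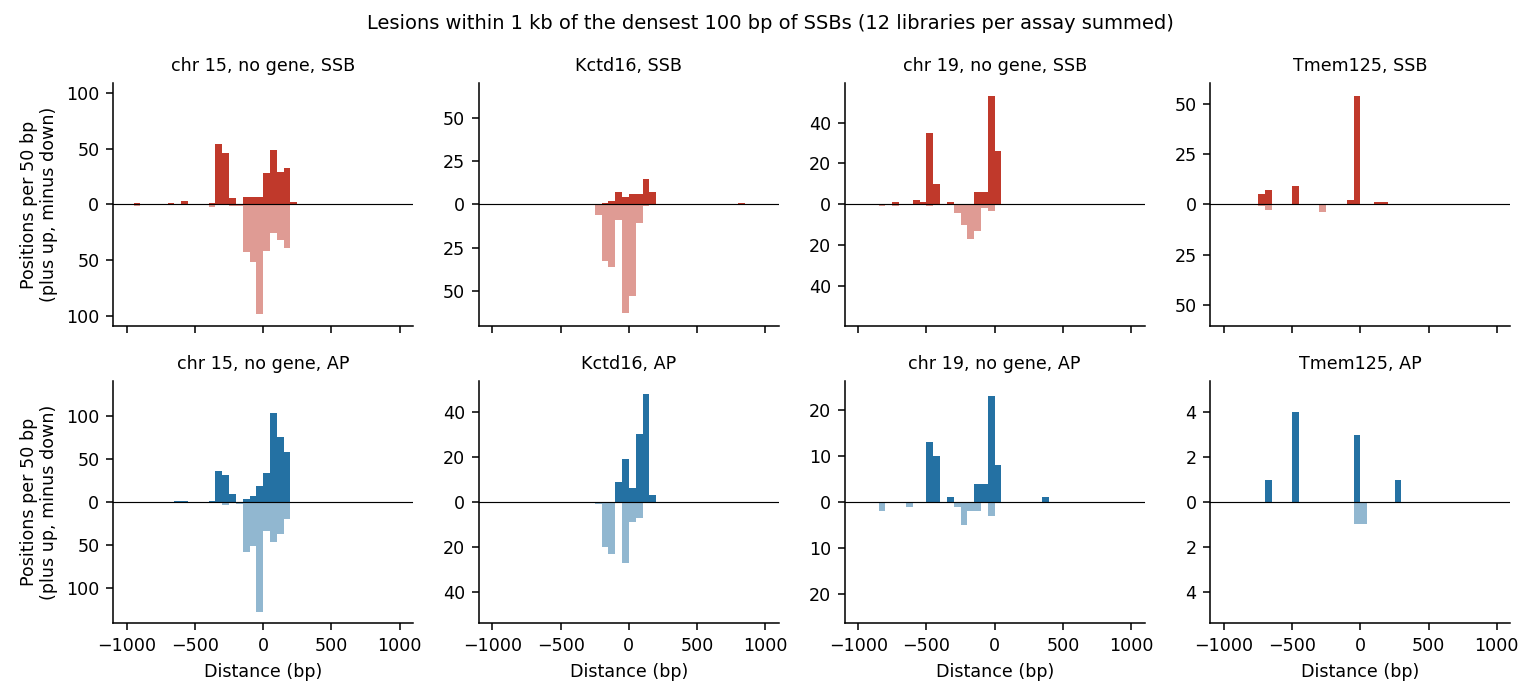
SSB (red, upper panels) and AP (blue, lower panels) positions per 50 bp, summed over 12 libraries, within 1 kb of the centre of the densest 100 bp of SSBs in 4 of the narrow windows, with distance in bp on the horizontal axis, plus-strand positions drawn upwards and minus-strand positions downwards. Vertical scales differ between panels. In Kctd16 the SSB peak points down and the AP peak beside it points up.

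Most libraries contributed to the density of a window. In 57 of the 68 windows chosen on SSBs every one of the 12 libraries stood at 2 or more times the median window scaled to its depth, against 0.127% of all windows, and in 50 of the 52 chosen on AP sites, against 0.178%. Since the sum over these libraries chose the windows, those counts describe how the sum was made up. The library with most positions contributed 14.3% to 29.9% of a window's SSBs and 10.0% to 16% of its AP sites. A dispersion of 1 stands for counting error alone, as the squared deviations from shares proportional to depth over their degrees of freedom. It had a median of 1.19 over the windows chosen on SSBs and 0.981 over those chosen on AP sites, against 0.957 and 0.957 over all windows with at least 10 positions. The highest values were 2.40 for SSBs, in the window of Ptma, and 1.85 for AP sites, in the first window of Duxf3. In the windows of Ptma and Rarg the lowest SSB library held 0 positions.

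Windows chosen on the libraries of one replicate number were also dense in those of the other, which the choice had not used. On the 6 SSB libraries of number 1 the rule took 101 windows, and their median density in the libraries of number 2 was 5.67 times the median window (2.58 to 28.2), with 61 at 5 or more times against 0.0394% of all windows. In the reverse direction 88 windows had a median of 6 times (2.33 to 30.7), with 61 at 5 or more against 0.0447%. For AP sites 53 windows had 7.25 times (3.63 to 23.3) and 55 had 7.35 times (3.24 to 23.2), with 45 at 5 or more in each case, against 0.0260% and 0.0252%. All of these windows were at 2 or more times in the libraries not used.

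**Figure D4:**
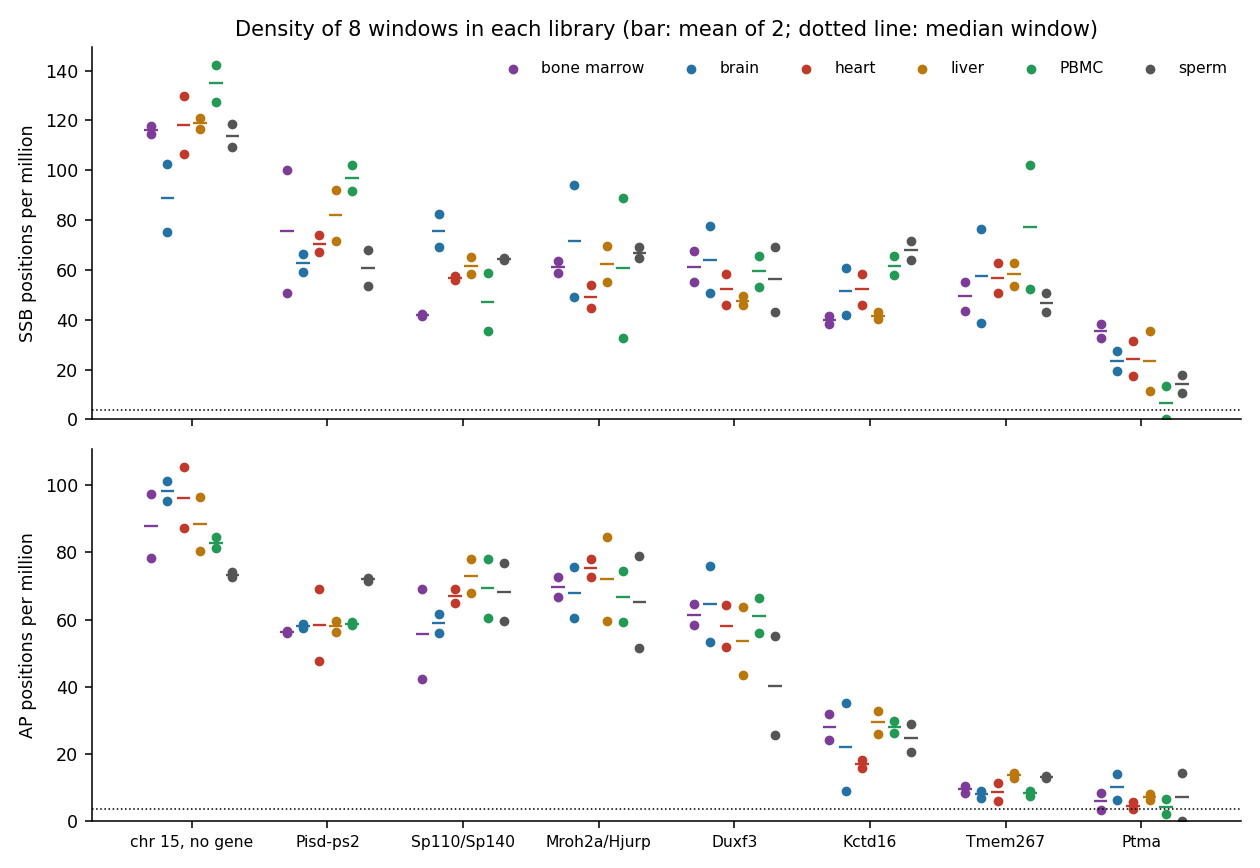
SSB (upper panel) and AP (lower panel) positions in ppm of the library in 8 of the windows, each point 1 library, coloured by tissue, with a bar at the mean of the 2 libraries of a tissue and a dotted line at the median window. The libraries of all tissues lie far above the dotted line in the window on chromosome 15 and in those of Pisd-ps2, Sp110, Mroh2a and Duxf3. For AP sites Tmem267 and Ptma lie nearer to it, with medians over the libraries of 9.89 and 6.5 ppm.

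Tissues differed little in how much of their lesions lay in the 77 windows. The share was lowest in sperm for SSBs, at 2133 ± 44.2 ppm (SD, n = 2), against means from 2384 ± 18.8 in heart to 2515 ± 141 in brain. Both sperm libraries, at 2102 and 2164, were below the 10 others, which lay between 2320 and 2640. The difference over the 6 tissues did not pass the test (F = 3.41, exact permutation p = 0.0834, with every 1 of the 10395 ways to divide the 12 libraries into pairs). Without sperm F was 0.412 (exact permutation p = 0.777), and without PBMC replicate 2 it was 5.65 (exact permutation p = 0.0444). For AP sites the tissue means lay between 2063 ± 105 in bone marrow and 2162 ± 16.2 in PBMCs (SD, n = 2), with F = 0.482 and an exact permutation p of 0.780, and sperm, at 2119 ± 94.3, was within the range of the others.

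No single window was called different between tissues. edgeR's quasi-likelihood test with Benjamini-Hochberg adjustment over all windows called 0 of the 77 for SSBs, against 0.000526% of the 189936 windows tested, and 0 for AP sites, against 0% of 208797. At an unadjusted p under 0.05 it gave 16 of the 77 for SSBs, against 2.84% of all, and 2 for AP sites, against 3.14%. DESeq2 called 0 of the 77 in either assay, against 1 of all windows for SSBs and 0 for AP sites. At an unadjusted p under 0.05 DESeq2 gave 3 of the 77 for SSBs, against 285 of 189936 windows, and 0 for AP sites, against 267 of 208797. The 77 windows held more positions than most windows tested, which gives the test more power in them. The smallest p among them was that of Rarg for SSBs, which is named after its values were seen (unadjusted p = 0.00011, edgeR adjusted p = 1). It had 28.8 ± 2.71 ppm in heart, 20.8 ± 0.927 in liver, 20.5 ± 4.97 in bone marrow, 17 ± 0.518 in brain, 7.71 ± 1.66 in PBMCs and 4 ± 5.66 in sperm (SD, n = 2). Both PBMC and both sperm libraries were below the other 8.

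The strand of the lesions, which the rule had not used, was uneven in some windows. Over whole libraries 50.2% to 50.6% of SSB positions and 50.8% to 51.1% of AP positions lay on the plus strand. The plus share in the windows ranged from 20.3% to 79.3% for SSBs and from 25.2% to 76.0% for AP sites. With edgeR's quasi-likelihood test and the library as a block, the strands differed in 10 of the 77 windows for SSBs, against 0.0100% of 189936 windows tested, and in 6 for AP sites, against 0.00862% of 208797. At an unadjusted p under 0.05 the counts were 27 of the 77, against 4.81% of all, and 23, against 3.81%. The 77 windows held more positions than most windows tested, so the strand test could call a smaller imbalance in them. These counts therefore cannot show whether uneven strands are more frequent in the 77 than elsewhere. With 3 windows called in both, 13 windows were called in at least 1 assay.

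For SSBs the strongest bias was in Kctd16, where 56 of 276 positions were on the plus strand (20.3%, exact 95% binomial interval 15.7 to 25.5%, which covers counting error only), all 12 libraries leaned to the minus strand, and edgeR gave a log2 ratio of plus to minus of -1.97 (adjusted p = 5.7e-17). At 13.59 Mb of chromosome 17 the plus share was 21.2% (15.5 to 27.8%), again with 12 of 12 libraries on the minus side (log2 ratio -1.87, edgeR adjusted p = 5.02e-09). Others leaned the other way. At 119.60 Mb of chromosome 13 in Tmem267 the plus share was 73.7% (67.6 to 79.2%, 10 of 12 libraries, edgeR adjusted p = 5.99e-07), at 3.23 Mb of chromosome 16 it was 79.3% (71.8 to 85.6%, 10 of 12, edgeR adjusted p = 1.87e-06), and at 61.26 Mb of chromosome 19 it was 73.5% (66.8 to 79.5%, 12 of 12, edgeR adjusted p = 1.41e-05). Also called were the windows at 3.05 and 3.08 Mb of chromosome 4, with 23.2% and 27.7% on the plus strand. The rest were that at 124.25 Mb of chromosome 9, that of Tmem125 and Gm40237 and the first of Tmem267, with 69.3%, 70.5% and 64.3%. In some of these windows much of the bias lay in the densest 100 bp. Outside it the plus share was 57.6% at 61.26 Mb of chromosome 19 and 56.4% in the window of Tmem125. It was 56.7% in the first window of Tmem267 and 30.9% in Kctd16. It changed less in the other windows called, with 24.5% at 13.59 Mb of chromosome 17, 70.4% at 119.60 Mb of chromosome 13 and 78.3% on chromosome 16. At 3.05 and 3.08 Mb of chromosome 4 it was 24.8% and 27.1%, and on chromosome 9 65.7%.

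For AP sites the plus strand was favoured at 3.08 Mb of chromosome 4 (74.9% of 235 positions, 68.8 to 80.3%, 12 of 12 libraries, log2 ratio 1.52, edgeR adjusted p = 1.06e-08) and at 12.01 Mb of chromosome 7 (73.1% of 234, 66.9 to 78.6%, log2 ratio 1.39, edgeR adjusted p = 4.09e-07). At 3.11 Mb of chromosome 10 it was the minus strand (25.2% plus of 163, 18.7 to 32.5%, 12 of 12 libraries on the minus side, log2 ratio -1.57, edgeR adjusted p = 5.48e-06), and likewise at 3.23 Mb of chromosome 16 (31% of 203, 24.7 to 37.9%, 12 of 12, edgeR adjusted p = 0.00112). The windows at 61.26 Mb of chromosome 19 (76.0% of 100, edgeR adjusted p = 0.0133) and 3.06 Mb of chromosome 4 (69.1% of 175, edgeR adjusted p = 0.0163) completed the 6.

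Among the windows whose strands differed in both assays, some leaned to opposite strands in SSBs and AP sites. The plus share was 27.7% for SSBs and 74.9% for AP sites at 3.08 Mb of chromosome 4, and 79.3% and 31% at 3.23 Mb of chromosome 16. At 61.26 Mb of chromosome 19, in contrast, it was 73.5% and 76.0%. A test of the difference between the assays in 1 model, chosen after the strand ratios had been seen, called 6 of the 77 windows, against 0.00694% of 187252. At an unadjusted p under 0.05 it gave 27, against 4.82%. The model did not pair the SSB and AP libraries of a DNA sample. The other 4 of the 6 among the 77 were in Kctd16, at 3.05 and 3.06 Mb of chromosome 4 and at 119.60 Mb of chromosome 13. In each of these 4 the strands had been called in 1 assay only. The AP plus share, not called, was 57.7% in Kctd16 and 46.4% at 119.60 Mb of chromosome 13. The assays also leaned to opposite strands at 3.05 Mb of chromosome 4, with 23.2% plus for SSBs and 66.7%, not called, for AP sites. At 3.06 Mb the plus share was 29.2%, not called, for SSBs and 69.1% for AP sites. Outside the densest 100 bp of each assay, SSBs (30.9% plus) and AP sites (35.4% plus) in Kctd16 both leaned to the minus strand.

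Some strand calls rested on few libraries or on the tool. With limma on log2 ratios 5 of the 77 windows were called for SSBs, against 385 of all 189936 tested, and 0 for AP sites, against 12 of 208797. When the libraries were summed by replicate number, 10 of the 77 were called for SSBs, against 65 of all windows tested. For AP sites 0 of the 77 and 0 of all windows were called, so that all 6 AP calls were lost. Of the SSB calls, the window at 3.08 Mb of chromosome 4 was lost without bone marrow replicate 1 (adjusted p = 0.0732), heart replicate 2 (0.189) or sperm replicate 1 (0.0840) and the window at 124.25 Mb of chromosome 9 without liver replicate 2 (0.0640) or sperm replicate 1 (0.0647), all by edgeR. The first window of Tmem267 was lost without brain replicate 1 (edgeR adjusted p = 0.0922) or 2 (0.226), heart replicate 1 (0.174), liver replicate 2 (0.181) or sperm replicate 2 (0.0745), and that of Tmem125 without brain replicate 1 (0.0733) or 2 (0.192), heart replicate 2 (0.476), liver replicate 1 (0.0770), sperm replicate 1 (0.369) or 2 (0.260). Of the AP calls, the window at 3.06 Mb of chromosome 4 was lost without bone marrow replicate 1 (edgeR adjusted p = 0.0934), brain replicate 1 (0.0612), heart replicate 2 (0.251), PBMC replicate 1 (0.0854) or sperm replicate 2 (0.109), and that at 61.26 Mb of chromosome 19 without brain replicate 2 (0.0757), heart replicate 1 (0.10), PBMC replicate 1 (0.0812) or sperm replicate 1 (0.263). The direction was the same in every one of these fits.

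**Figure D5:**
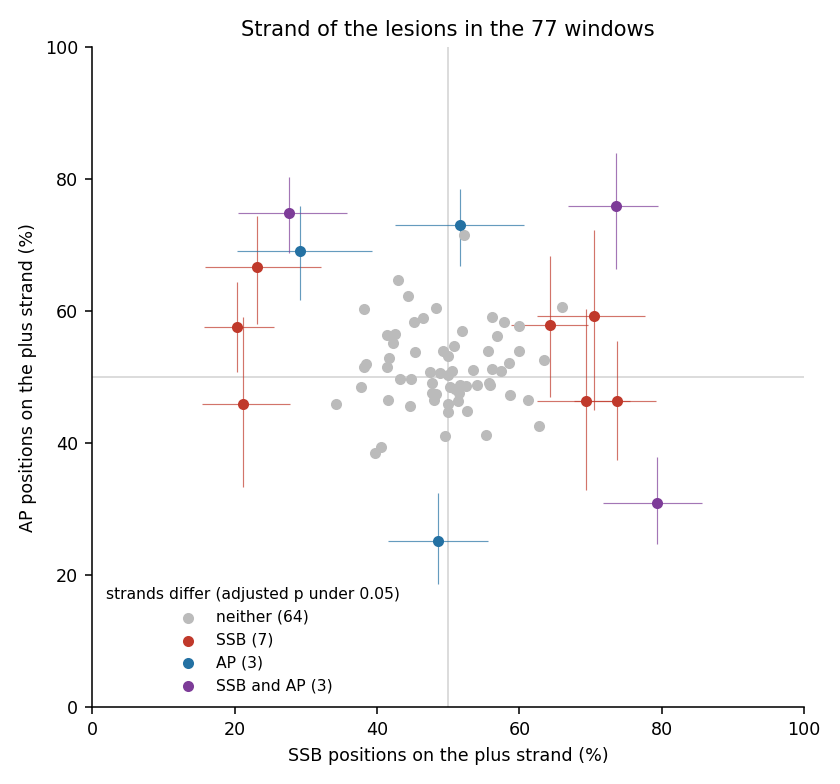
Percent of positions on the plus strand in the 77 windows, SSBs on the horizontal and AP sites on the vertical axis, each point 1 window with all 12 libraries of an assay summed. Colours give the assay in which the strands differed (edgeR adjusted p under 0.05), and bars are exact 95% binomial intervals of the called windows. The 64 windows called in neither assay lie between 34.3% and 66% for SSBs and between 38.6% and 71.6% for AP sites. The 2 windows called in both assays with opposite bias lie at 27.7% against 74.9% and at 79.3% against 31%.

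Part of the windows lay near chromosome ends. Of the 77 windows, 10 lay within 1 Mb of the first listed position of their chromosome, which in the mouse is next to the centromere, and 7 within 1 Mb of the last, together 22.1% against 3.90% of all autosomal windows. The strand calls in at least 1 assay fell on 9 of these 17 windows and on 4 of the other 60. The share of strand calls among all windows near chromosome ends was not computed, so nothing about the 77 is read from these counts. The 7 windows near the last position were all among those chosen on SSBs alone, while 7 of the 10 near the first position were chosen in both assays and 7 of those 10 had no annotated gene.

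Many windows lay near stretches in which nothing was listed. Of all autosomal windows 9670 (3.93%) held 0 positions in either assay. Such an empty window lay within 50 kb of 32 of the 77 (41.6%), against 8.44% of all windows with a position, and within 10 kb of 8 (10.4%), against 2.01%. Selected windows close together can share an empty window, so these are not counts of separate places. How reads from repeated or unassembled sequence were placed is not given in the sources used here, and the part of read placement in the density of these windows was not tested.

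By gene class, protein-coding genes overlapped 48 of the 77 windows (62.3%, against 45.7% of all autosomal windows), pseudogenes 12 (15.6% against 4.76%) and long noncoding RNA genes 11 (14.3% against 13.1%), and 18 windows had no gene of the table (23.4% against 41.8%). Small nuclear RNA genes overlapped 2 windows, those of Rnu7, whose RNA processes histone messages, and of LOC115488853. Their share was 2.60% against 0.380% of all windows. Small nucleolar RNA genes lay in 1 window, that of Snhg14, microRNA genes in that of Mir707 and vomeronasal receptor genes in that of Vmn2r-ps16, against 0.422%, 0.404% and 0.467% of all windows. Ribosomal RNA genes, tRNA genes, histone genes, olfactory receptor genes, Zfp zinc finger genes, clustered protocadherins, antigen receptor segments and tandem arrays of germ cell genes overlapped 0 of the 77. These classes overlap 0.0183% to 0.701% of all windows, so that a count of 0 is no result about the members. The segments that the rule left out on chromosomes 11 and 17 do not enter these counts. Adjacent windows can share a gene, so the counts are not of separate places.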

How the data were processed

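The authors deposited, per library, a list of single-nucleotide lesion positions with strand and a raw count of reads at each, not normalized and not pooled. The aligner, filters and caller behind these lists are not given in the sources used here, and the build per the labels is mm10 (GRCm38). Each position was counted once, and positions were summed in windows of 10 kb. The windows, gene lists and tests were chosen with earlier results of these data known. Genes are RefSeq spans of GRCm38.p6, without exons. Windows with at least 10 positions were tested with edgeR 4.0.16 (quasi-likelihood test, TMM applied to the totals of all positions, p adjusted by Benjamini-Hochberg, threshold 0.05) over the 6 tissues, and between strands with the library as a block. Alternatives were DESeq2 1.42.0, limma 3.58.1, other thresholds, normalizations and filters, summed counts, a replicate block and leaving out each library. Shares of libraries were compared by exact permutation of the pairings. R 4.3.3, Python 3.11.15, pandas 2.3.3, numpy 2.4.6, scipy 1.17.1 and matplotlib 3.10.9 were used, and the tests were tested on simulated data. Named windows were the 10 densest per assay, up to 15 in both, up to 5 per strand or tissue test, those next to the threshold, the 5 longest runs and up to 3 per gene class. The depth was 225011 to 1041983 positions per library. Samples with RNA were not analysed here. The labels do not say whether a replicate number marks an animal, and the data gave no pairing by the rule used (every pair over 0.1, here 5 of 15 in each assay): over 15 pairs of tissues, deviations of same-numbered libraries correlated from -0.115 to 0.15 for SSBs and from -0.299 to 0.325 for AP sites. Some windows are not reported here by name.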

Additional observations from a re-analysis of the deposited data

Results flagged for a closer look

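In 6 of the windows the plus to minus ratio differed between SSBs and AP sites by a test of the difference itself (edgeR, adjusted over all windows tested, as log2 of the SSB ratio over the AP ratio). The difference was -2.90 at 3.08 Mb of chromosome 4 (edgeR adjusted p = 1.42e-12), 3.01 at 3.23 Mb of chromosome 16 (adjusted p = 1.42e-12), -2.40 at 40.30 Mb of chromosome 18 in Kctd16 (adjusted p = 1.46e-11), -2.66 at 3.05 Mb of chromosome 4 (adjusted p = 3.35e-06), -2.38 at 3.06 Mb of chromosome 4 (adjusted p = 9.18e-05) and 1.65 at 119.60 Mb of chromosome 13 in Tmem267 (adjusted p = 0.0325). A negative value means that SSBs leaned to the minus strand relative to AP sites. Both assays used the same DNA samples, but the test had the library as a block and did not pair the SSB and AP library of a sample. The cause was not tested.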

How the results depend on the processing

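The number of selected windows depends on the threshold. At 4 times the median it was 322 for SSBs and 88 for AP sites, and at 10 times 19, 15 and, in both, 14. Leaving out each library in turn gave 67 to 79, 51 to 54 and 41 to 45. The AP density of windows chosen on SSBs was 7.37 times the median as a mean, 6.36, 5.70 and 6.47 in bone marrow, brain and sperm libraries alone and 13.9 with the threshold at 10 times. The SSB density of windows chosen on AP sites was 8.75 as a mean, 7.98 in brain, 7.92 in PBMCs and 14.1 at 10 times. With that threshold the density in the libraries not used was 13.0 and 11.9 for SSBs and 14.8 and 15.4 for AP sites.

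The tissue difference in the SSB share had an F of 1.47 to 5.65 without each library (exact permutation p from 0.0444 to 0.358), and 4.57 over the windows chosen in both assays alone, an alternative chosen after seeing the data (exact permutation p = 0.0378). For AP sites F was 0.302 to 1.16. Windows called between strands with limma numbered 385 for SSBs, of which 5 were among the 77, and 12 for AP sites, of which 0 were among the 77. Without each library they were 14 to 21 and 12 to 18, with 7 to 10 and 4 to 6 of the 77. Between tissues, 2 SSB windows and 1 AP window were called without the filter on positions, 4 SSB windows with counts summed, and 1 to 2 and 0 to 1 without each library, with 0 of the 77 in all of these fits. With the replicate number as a block, for the strand tests as libraries summed by number, 65 windows were called between strands for SSBs, 10 of them among the 77, and 0 windows for AP sites, 0 among the 77, while the difference between the assays kept 6 of the 77. F for the shares became 3.47 (p = 0.15) and 0.515 (p = 0.790) in exact permutation tests with the block. The cause of these changes was not tested. No direction reversed in any alternative. Depth limits the tissue results, since the typical window held 21 SSB and 34 AP positions over 12 libraries.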

Other observations

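A second count at the same position of the same library was more frequent in the selected windows. The share of positions with a count above 1 had a median of 1.02% and reached 12.7% in the windows chosen on SSBs, against 0.568% over all autosomal windows. For AP sites it had a median of 1.52% and reached 25.3%, against 0.441%. The first values are medians of windows chosen for their density, and the second are for all windows together. The difference was not tested.

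The bases around the lesions in the promoters of the selected windows were compared with those of all promoters. On the strand of the lesion, 37.8% of 172 SSB positions were listed at C and 54.7% had C just before them, against 39.0% and 55.3% in all promoters, where 58961 positions were listed. The largest gap for SSBs was at the third base before them, with T at 32.6% against 23.4%. Of 173 AP positions 69.9% were listed at a purine, with 41.6% at A and 28.3% at G, against 74.8%, 38.7% and 36.1% of 62998, and 42.9% had C at the second base before them, against 53.2%. The positions share libraries and promoters, and these shares were not tested.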
